A study of Mus musculus with 6 samples.

Results

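The family of miR-15, miR-16 and miR-195 is a group of small RNAs that share the first bases of their mature strand. Its members here are 7 mouse genes, Mir15a, Mir16-1, Mir15b, Mir16-2, Mir195a, Mir322 and Mir503, taken by gene name from the 2207 miRNA genes in a table of 30638 features. All 7 had enough reads to be tested. They were measured in hearts of 6 C57BL/6 mice by sequencing of small RNA inserts of 15 to 100 nt. The 3 mice of the knockout group carry the labels Elac2 -/- and L/L, cre: an exon of Elac2 flanked by loxP sites was removed by a cre recombinase under the muscle creatine kinase promoter, which is active in striated muscle, so that other cells of the heart keep the gene. The 3 mice of the control group have L/L in their titles, which names the loxP-flanked alleles without cre, and Elac2 +/+ in their genotype. The labels used here state no sex and no age in words, and a code in the sample descriptions is not explained there. The RNA of Elac2 itself was not analysed here, so the genotypes rest on the labels. The product of Elac2 is RNase Z, which trims the 3′ ends of precursor tRNAs in both the nucleus and the mitochondria.

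A miRNA is cut from a hairpin precursor by Drosha and Dicer, and it finds its target mRNAs mainly by pairing through the seed, bases 2 to 8 of the mature strand. Targets described for the AGCAGCA seed include mRNAs for D and E type cyclins, checkpoint kinases and the survival protein Bcl2, and the family is known as a brake on cell division. In the mouse heart, miR-195 is known to increase after birth, when heart muscle cells leave the cell cycle. The mature 5′ strands of the members, and that of the neighbour miR-497a which shares their seed, are shown 5′ to 3′ with the seed in capitals, because the seed is what defines the family (RefSeq, GRCm38.p6).

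miR-15a-5p: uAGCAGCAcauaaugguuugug
miR-15b-5p: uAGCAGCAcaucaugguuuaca
miR-16-5p: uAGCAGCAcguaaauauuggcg
miR-195a-5p: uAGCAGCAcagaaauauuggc
miR-497a-5p: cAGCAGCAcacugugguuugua
miR-322-5p: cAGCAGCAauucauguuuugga
miR-503-5p: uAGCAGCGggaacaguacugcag

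The seed AGCAGCA was found in 10 of 1679 mature mouse miRNA names in the RefSeq table. The seed of miR-503 is AGCAGCG and differs from the others in its last base, so Mir503 belongs with the family by its near-identical seed and by its position next to Mir322, not by the same 7 bases. From position 9 on the strands diverge: miR-16 and miR-195a are identical at 11 of 13 positions there, miR-15a and miR-15b at 10 of 14, and miR-322 and miR-503 at 5 of 14.

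The genes lie in 4 loci (GENCODE M21, GRCm38). Mir15a (chr14:61632027-61632110, minus strand) and Mir16-1 (chr14:61631880-61631972, minus strand) are 54 bases apart within Dleu2, a long non-coding RNA gene whose human counterpart is lost in many chronic lymphocytic leukaemias. Mir15a lies in an intron of Dleu2, and Mir16-1 overlaps an annotated exon of it on the same strand. Mir15b (chr3:69009772-69009835, plus strand) and Mir16-2 (chr3:69009902-69009996, plus strand) are 66 bases apart in an intron of Smc4, which encodes a condensin subunit. Mir195a (chr11:70235042-70235135, plus strand) lies 241 bases from Mir497. Mir322 (chrX:53054255-53054349, minus strand) and Mir503 (chrX:53053984-53054054, minus strand) are 200 bases apart in a cluster that also holds Mir351, Mir542, Mir450-1, Mir450-2 and Mir450b.

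Mir16-1 and Mir16-2 give the same mature 5′ strand. Their hairpins are shown with that shared strand in capitals, because a read of the capitals alone cannot be assigned to either gene.

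Mir16-1: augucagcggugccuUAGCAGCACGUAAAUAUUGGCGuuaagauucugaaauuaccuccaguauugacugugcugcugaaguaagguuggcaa
Mir16-2: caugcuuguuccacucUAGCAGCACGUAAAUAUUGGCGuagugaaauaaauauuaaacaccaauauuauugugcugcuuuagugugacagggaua

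Mir16-1 held a share of their summed counts between 54.6% (95% Wilson interval 52.4 to 56.7) and 56.6% (54.2 to 58.9) over the 6 libraries. Other gene pairs with 1 mature strand in common were also split near evenly: Mir1a-1 held 49.2% to 50.9% of the pair's counts and Mir133a-1 49.9% to 50.2%. The counts of Mir16-1 and Mir16-2 are read here as 1 sum, because reads of the shared strand cannot be told apart. The split does not show how such reads were assigned, so the value deposited under either name may not be the level of that locus. Intervals cover counting error only.

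Total counts were 14505705 to 15271036 in knockout and 13510061 to 16248673 in control libraries, of which miRNA genes took 31.4% ± 2.08 and 41.6% ± 1.99 (SD, n = 3 each). The 7 members together had 6224 to 8494 counts per library. Each count is of a whole gene feature, so reads of the 5′ strand, the 3′ strand and the precursor were not told apart. Cardiomyocyte miRNAs, among them Mir1a-1, Mir133a-1, Mir208a, Mir208b and Mir499, were all detected. Their summed levels were 72669 to 93284 CPM in knockout and 117837 to 148037 CPM in control hearts, nearly all of it Mir1a-1 and Mir1a-2. CPM are counts per 1e+06 counts of a library whose size was scaled by its TMM factor.

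In these scaled counts, Mir15b and Mir322 were higher in knockout hearts and the other 5 members, the 2 miR-16 genes counted apart as deposited, did not pass the test, but both values turned negative (-0.019 and -0.32 on the log2 scale) when scaling came from snoRNA and scaRNA genes. In the quasi-likelihood test of edgeR, adjusted over 1144 features after Benjamini and Hochberg, 2 of 7 members were called higher and 0 lower at an adjusted p under 0.05. Over all features tested 50.2% were called, 23.2% higher and 27.0% lower, and over the 312 miRNA genes tested 23.4% were called, 17.0% higher and 6.41% lower. The median log2 fold change of the members was 0.22, against 0.21 for all miRNA genes and -0.01 for all features. The members' count is thus near that of miRNA genes in general. At an unadjusted p under 0.05 the counts were also 2 higher and 0 lower, and DESeq2 gave 2 and 0, against 10.3% and 23.6% of all features. For the same 2 members every knockout heart lay above every control heart, as for 28.8% of miRNA genes. In either direction, the groups did not overlap for 41.7% of miRNA genes and 63.0% of all features. Without control replicate 3 only 1 member, Mir15b, was called higher (11.0% of miRNA genes and 19.3% of all features). Without control replicate 2 there were 3, with Mir15a added (16.2% of miRNA genes and 21.0% of all features). In heart tissue, fewer cells of a type and less RNA per cell cannot be told apart.

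**Figure D1:**
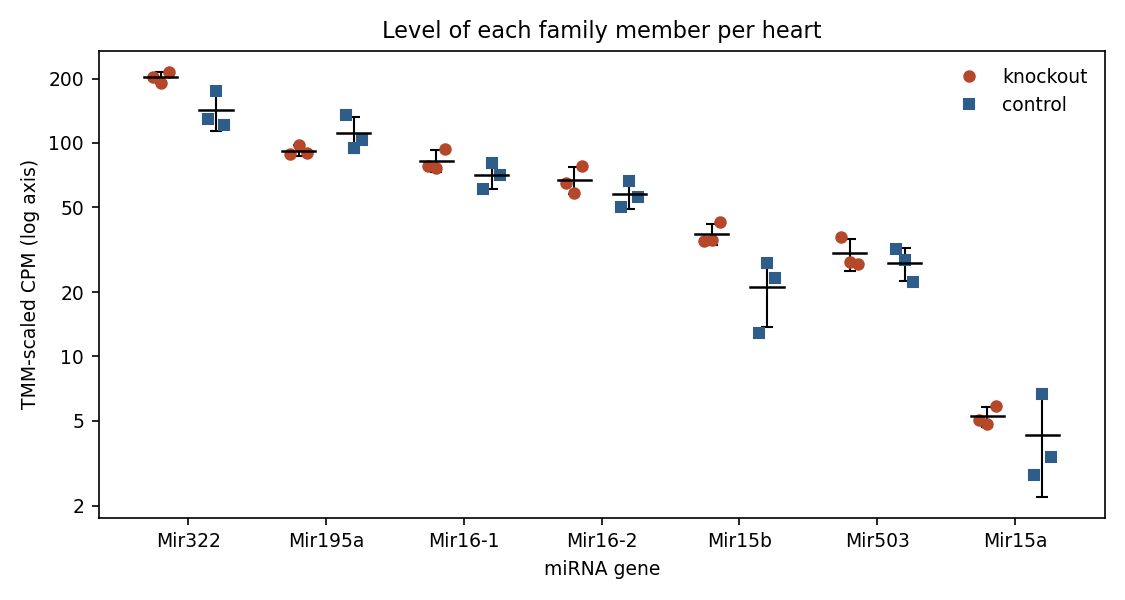
TMM-scaled CPM (log axis) of the 7 members in each heart, knockout (circles) and control (squares), with the mean and SD of 3 hearts as bars. By group mean Mir322 lies highest and Mir15a lowest in both groups, though Mir195a lies above Mir322 in control replicate 1. The knockout and control points are apart for Mir322 and Mir15b in this scaling.

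Mir322 was the most abundant member by group mean, also when CPM were divided by the length of the mature strand. This miRNA, the mouse counterpart of human miR-424, is known to slow division of mouse myoblasts as they differentiate. It had 204, 192 and 215 CPM in knockout hearts, against 130, 175 and 121 CPM in control hearts. In control replicate 1 Mir195a was higher, at 136 CPM, and in control replicate 3 the summed miR-16 genes were, at 127 CPM. Every knockout heart lay above every control heart for Mir322, with control replicate 2 the closest. The log2 fold change was 0.52 (SE 0.19, edgeR adjusted p = 0.0431; 95% interval 0.09 to 0.94), with the value at -0.32 under snoRNA-based scaling. The call was lost without control replicate 3 (log2 fold change 0.39, adjusted p = 0.203), and over all alternatives adjusted p ran from 0.000983 to 0.476. In the authors' deposited table its log2 fold change was 0.56 (DESeq2 adjusted p = 0.0261).

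Mir503, cut from the same cluster, had 36.3, 27.7 and 27.1 CPM in knockout hearts, against 31.9, 28.3 and 22.3 CPM in control hearts. The groups overlapped, and the log2 fold change of 0.14 did not pass the test (SE 0.22, edgeR adjusted p = 0.599; 95% interval -0.34 to 0.63). The log2 ratio of Mir322 to Mir503 counts, which needs no library scaling, was 2.76 ± 0.25 in knockout and 2.37 ± 0.31 in control hearts (SD, n = 3 each; exact two-sided permutation p = 0.2, adjusted over 3 ratios 0.3). With 3 against 3 hearts the smallest p this test allows is 0.1.

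Mir15b had the largest fold change of the family. It had 34.8, 35.1 and 42.5 CPM in knockout hearts, against 12.9, 27.3 and 23.3 CPM in control hearts. The groups did not overlap, and control replicate 1 was by far the lowest library. The log2 fold change was 0.82 (SE 0.27, edgeR adjusted p = 0.0249; 95% interval 0.23 to 1.41), and -0.019 under snoRNA-based scaling. Without control replicate 1 it was 0.64 and was still called (adjusted p = 0.0210), and over all alternatives adjusted p ran from 7.61e-06 to 0.951. In the authors' deposited table it was 0.87 (DESeq2 adjusted p = 0.00801).

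The feature named Mir16-2, after the neighbour of Mir15b in Smc4, had 65.2, 58.5 and 77.6 CPM in knockout hearts, against 50.3, 66.4 and 55.6 CPM in control hearts, and the feature named Mir16-1 had 78.3, 76.3 and 93.6 CPM in knockout hearts, against 60.9, 80.4 and 71.1 CPM in control hearts. Both pairs of groups overlapped. Summed to 1 feature, the miR-16 genes averaged 149.8 ± 19.1 CPM in knockout and 128 ± 17.8 CPM in control hearts (SD, n = 3 each). The log2 fold change of the sum was 0.22 (SE 0.19, edgeR adjusted p = 0.344; 95% interval -0.19 to 0.64). The log2 ratio of Mir15b to Mir16-2 counts was -0.84 ± 0.09 in knockout and -1.50 ± 0.40 in control hearts (SD, n = 3 each; exact two-sided permutation p = 0.1, the smallest it can give, adjusted over 3 ratios 0.3). All 3 knockout ratios lay above all 3 control ratios, although the count of Mir16-2 may also hold shared-strand reads from the locus of Mir16-1.

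Mir15a was the least abundant member, with 61 to 78 counts per knockout library and 43 to 118 per control library. This gave 5.01, 4.83 and 5.87 CPM in knockout hearts, against 2.80, 6.65 and 3.39 CPM in control hearts. Control replicate 2 lay above all knockout hearts and the other two control hearts below them. The log2 fold change was 0.29 (SE 0.32, edgeR adjusted p = 0.473; 95% interval -0.41 to 0.99), which is the widest interval of the family. Without control replicate 2 it was 0.72 and called (adjusted p = 0.0414), while over all alternatives adjusted p reached 0.912. The log2 ratio of Mir15a to Mir16-1 counts averaged -3.98 ± 0.01 in knockout and -4.14 ± 0.48 in control hearts (SD, n = 3 each; exact two-sided permutation p = 0.4). Its host Dleu2 had 3 to 5 counts in knockout and 2 to 15 counts in control libraries, too few to be tested.

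Mir195a was the one member with a fold change below 0 in the scaled counts, although it did not pass the test and its value turned to 0.063 without a filter on low counts and to 0.25 with scaling from snRNA and nuclear rRNA genes. It had 88.4, 98.3 and 89.6 CPM in knockout hearts, against 136, 94.7 and 102.9 CPM in control hearts. Only control replicate 2 fell within the knockout range, and control replicate 1 was the highest. The log2 fold change was -0.27 (SE 0.20, edgeR adjusted p = 0.270; 95% interval -0.70 to 0.16). Mir497, cut from the same locus and with the same seed, had 10.8, 10.6 and 9.18 CPM in knockout hearts, against 7.87, 10.1 and 6.78 CPM in control hearts (log2 fold change 0.30, SE 0.23, edgeR adjusted p = 0.284). Mir497b, annotated over Mir497 on the opposite strand, had 1 to 5 counts in knockout and 4 to 8 counts in control libraries. Reads of both are uncertain, because no source used here says whether strand was used in counting.

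**Figure D2:**
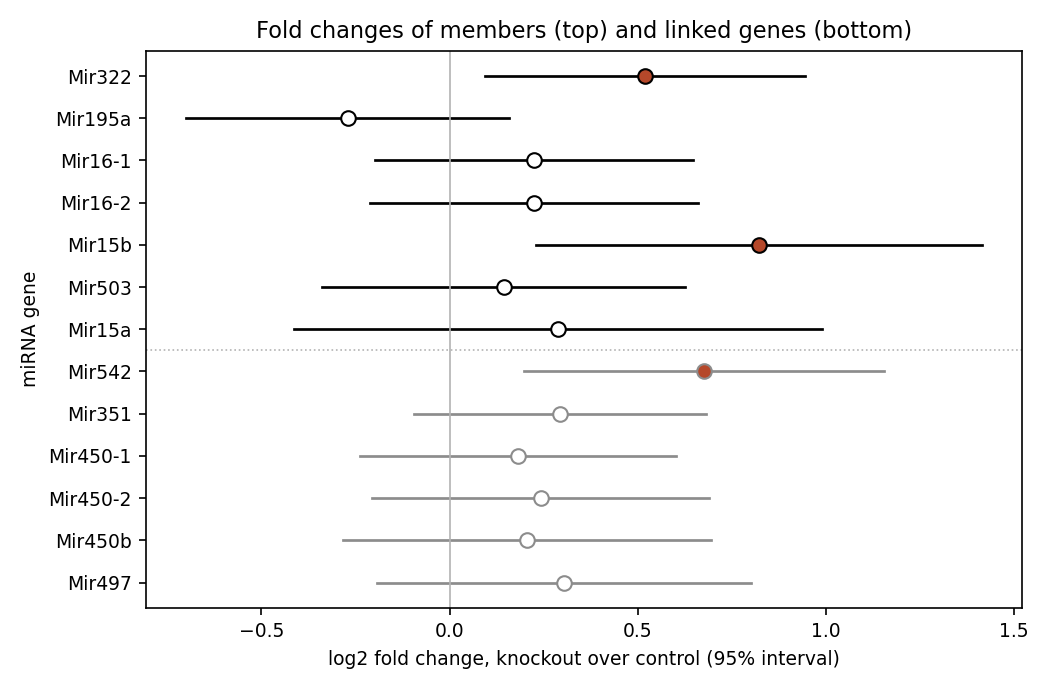
Log2 fold change, knockout over control, with 95% intervals from the edgeR fit, for the 7 members (above the dotted line) and 6 linked or same-seed genes (below it). Filled points passed an adjusted p of 0.05: Mir322 at 0.52, Mir15b at 0.82 and Mir542 at 0.68, each of which turns negative with scaling from snoRNA and scaRNA genes.

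With the miR-16 genes as 1 sum, the order of mean CPM per base of mature strand was Mir322, miR-16, Mir195a, Mir15b, Mir503 and Mir15a in knockout hearts, and the same in control hearts except that Mir503 stood above Mir15b. The levels were 9.25, 6.81 and 4.39 CPM per base for Mir322, miR-16 and Mir195a in knockout hearts, and 6.46, 5.83 and 5.29 CPM per base in control hearts. Taken apart, each miR-16 feature would stand below Mir195a. These are levels of gene features, and the level of the mature strand that holds the seed was not measured apart. In knockout hearts the CPM ranges of Mir322 (192 to 215), miR-16 (135 to 171) and Mir195a (88.4 to 98.3) were apart, and those of Mir15b and Mir503 overlapped. In control hearts those of Mir322 (121 to 175), miR-16 (111 to 147) and Mir195a (94.7 to 136) overlapped, as did those of Mir503 and Mir15b.

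Counts were also expressed as each gene's share of the 7 members' summed counts, a measure that no library scaling can move. Mir322 held 39.3% ± 0.524 of the family's counts in knockout hearts and 32.5% ± 3.49 in control hearts (SD, n = 3 each), and Mir15b 7.21% ± 0.467 and 4.86% ± 1.58. For both, every knockout heart lay above every control heart (exact two-sided permutation p = 0.1, the smallest possible, adjusted over 7 shares 0.35). Mir195a held 17.8% ± 1.92 in knockout and 25.8% ± 6.07 in control hearts (exact two-sided permutation p = 0.2, adjusted 0.467, n = 3 each). Its share in knockout replicate 2 lay just above that in control replicate 2, so the groups overlapped. Shares are tied to each other: with Mir195a left out of the sum the difference for Mir322 was 3.98 percentage points, against 6.76 with it. The 2 miR-16 genes together held 28.8% ± 1.98 in knockout and 29.5% ± 2.93 in control hearts (exact two-sided permutation p = 0.9, n = 3 each). With Mir195a left out, the differences were -2.62 points for Mir16-1 and -2.12 points for Mir16-2 (exact two-sided permutation p = 0.1 each, n = 3 each). Mir503 (5.88% ± 1.11 in knockout and 6.33% ± 1.04 in control) and Mir15a (1.01% ± 0.0497 in knockout and 0.965% ± 0.379 in control) also overlapped.

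**Figure D3:**
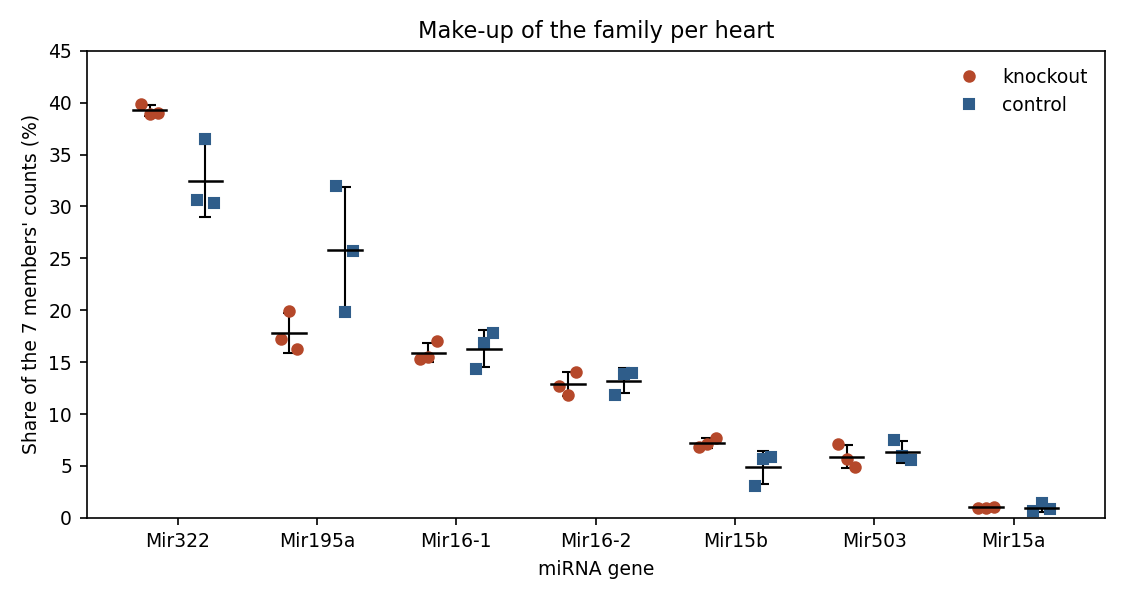
Share of the 7 members' summed counts held by each gene (percent), per heart, for knockout (circles) and control (squares), with mean and SD bars of 3 hearts. Mir322 makes up 39.3% of the family in knockout and 32.5% in control hearts, and Mir195a 17.8% and 25.8% with overlapping groups.

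The family as a whole took 0.167%, 0.129% and 0.147% of miRNA counts in knockout hearts, against 0.111%, 0.125% and 0.116% in control hearts. Every knockout heart was above every control heart. Of all counts, in which miRNAs are a smaller part in knockout hearts, it took 0.0486%, 0.0408% and 0.0490% in knockout and 0.0483%, 0.0523% and 0.0459% in control hearts, and the groups overlapped. The family's summed share was given as a description, with no test.

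The choice of features that set the scaling moved all members up or down together. With factors from miRNA genes 0 members were called in edgeR (of all features 16.6% higher and 31.1% lower, of miRNA genes 8.33% and 12.2%), with Mir15b at 0.61 (adjusted p = 0.135) and Mir322 at 0.33 (adjusted p = 0.235). With total counts alone 1 was called lower, Mir195a at -0.62 (adjusted p = 0.0232), against 37.8% of all features and 20.5% of miRNA genes. With snoRNA and scaRNA genes 4 were called lower, Mir195a, Mir503, Mir16-1 and Mir16-2, against 57.6% of all features and 156 of 312 miRNA genes. With snRNA and nuclear rRNA genes 4 were called higher: Mir15b at 1.45, Mir322 at 1.08, and Mir16-1 and Mir16-2 at 0.82 each. In that setting 35.8% of all features and 38.5% of miRNA genes were called higher. Neither count of 4 says anything particular about the family, and the miR-16 pair is 1 mature strand counted as 2 genes. The median log2 fold change of all features shifted by -0.18, -0.34, -0.85 and 0.55 in these 4 settings. Since each scaling adds nearly the same amount to every gene, the order of the members by fold change was not put to a test by these settings.

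**Figure D4:**
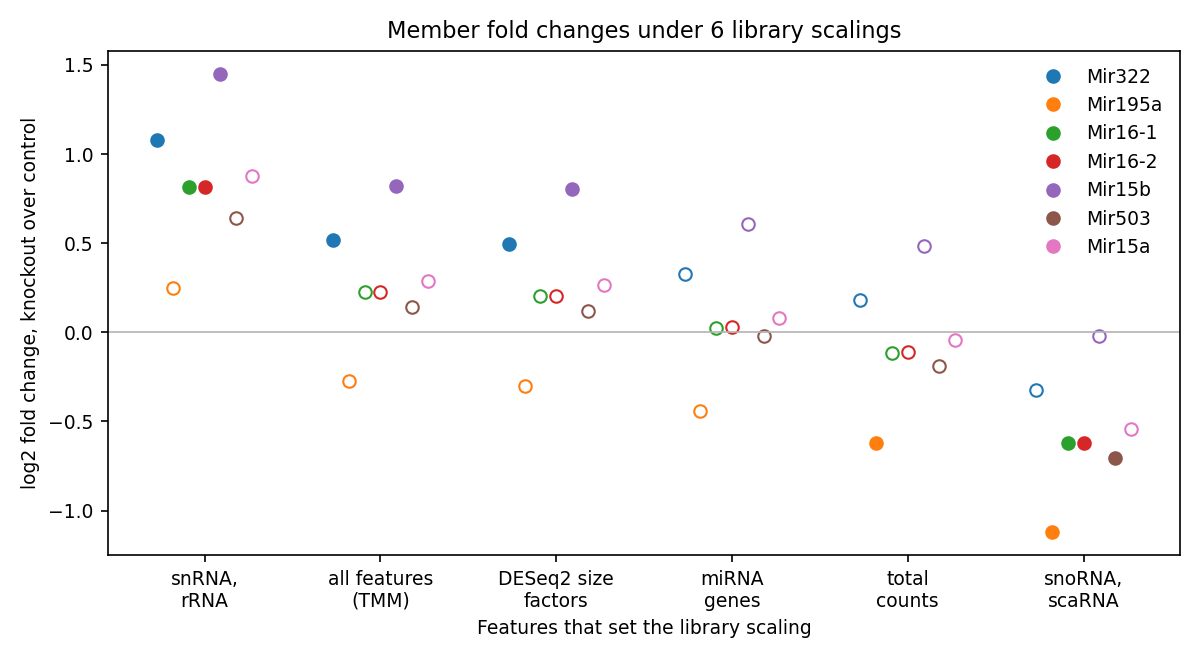
Log2 fold change of each member, knockout over control, under 6 library scalings (horizontal axis, named by the features that set the scaling). Filled points passed an adjusted p of 0.05. The members move up or down together, as a scaling shifts all genes by nearly the same amount, and only Mir195a is below 0 with TMM over all features and with DESeq2 size factors.

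A list of 14 other genes held 5 found with the AGCAGCA seed in the RefSeq table and 7 that lie at the same loci. For the other 2, Mir1907 and Gm27000, neither was found, and the mature sequence of Mir1907 was not looked up elsewhere. Of these 14, 6 were tested, 1 was called higher and 0 lower by edgeR. Over all features tested 23.2% were called higher and 27.0% lower, and over miRNA genes 17.0% and 6.41%. Mir542, from the cluster of Mir322, had 19.8, 22.7 and 24.8 CPM in knockout hearts, against 12.7, 17.1 and 12.3 CPM in control hearts (log2 fold change 0.68, SE 0.22, edgeR adjusted p = 0.0229), with no overlap but a value of -0.16 under snoRNA-based scaling and no call without control replicate 3 (0.56, adjusted p = 0.115). Mir351, which lies 630 bases from Mir503, had 179, 140 and 157 CPM in knockout hearts, against 132, 132 and 125 CPM in control hearts. Its groups did not overlap, but the log2 fold change of 0.29 did not pass the test (SE 0.18, edgeR adjusted p = 0.188). Mir450-1, Mir450-2 and Mir450b averaged 34.1, 35.2 and 13.0 CPM in knockout and 30.0, 29.7 and 11.3 CPM in control hearts, with overlapping groups. Of the 7 genes of the X chromosome cluster, 2 were called higher, 0 lower and 5 were not called, with log2 fold changes from 0.14 to 0.68. The share called higher was 23.2% of all features and 17.0% of miRNA genes. With miRNA-based factors neither Mir322 (0.33, edgeR adjusted p = 0.235) nor Mir542 (0.48, edgeR adjusted p = 0.113) was called. The other same-seed genes Mir6342, Mir6353 and Mir6419 were listed at 0 in every library, as was Mir1907, and Mir195b had at most 2 counts.

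The miRNA genes whose centred log2 CPM over the 6 libraries lay closest to Mir322 were Mir342 (Euclidean distance 0.121), Mir339 (0.26) and Mir542 (0.286). Mir342 had 20.8, 21.4 and 22.2 CPM in knockout hearts, against 13.5, 19.0 and 13.3 CPM in control hearts (log2 fold change 0.49, edgeR adjusted p = 0.0766). Control replicate 2 was the highest control heart for all 4 genes. The genes were picked for their closeness to Mir322 in these same libraries, so this likeness follows from the choice. Mir339, at 15.4, 15.1 and 17.4 CPM in knockout hearts and 9.82, 14.6 and 11.3 CPM in control hearts, also did not pass the test (log2 fold change 0.42, edgeR adjusted p = 0.132).

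Members of the family are also abundant in blood cells, and markers of other cells were therefore set beside them. The red cell miRNA Mir144 had 78.5, 82.9 and 110 CPM in knockout hearts, against 27.6, 54.8 and 68.8 CPM in control hearts, with control replicate 1 the lowest as for Mir15b. Its log2 fold change was 0.85, and -0.0051 with snoRNA-based scaling. Of the 3 red cell miRNAs, 1 was called higher (Mir144), 1 was called lower (Mir486, which muscle also makes) and Mir451a was not called, and their summed levels overlapped at 2205 to 2921 CPM in knockout and 2645 to 3696 CPM in control hearts. Of 5 leukocyte genes 2 were tested, Mir142 not called and Mir150 called lower, with summed levels of 159 to 193 CPM in knockout and 125 to 156 CPM in control hearts, while Mir223 and Mir155 were listed at 0. In the authors' deposited table Mir142 passed (DESeq2 adjusted p = 0.0495) and Mir150 did not (DESeq2 adjusted p = 0.0545). The call of Mir150 was also lost with the replicate block (edgeR adjusted p = 0.101). It was lost too without any 1 of the knockout libraries, as was that of Mir486. The call of Mir144 was lost without control replicate 2 (edgeR adjusted p = 0.0768). Of 6 smooth muscle and fibroblast miRNAs, 2 of 4 tested were called higher and 2 were listed at 0, with summed levels of 24418 to 32253 CPM in knockout and 27829 to 34995 CPM in control hearts, nearly all of it Mir143. The 2 called were the fibroblast miRNAs Mir199a-1 and Mir199b, whose counts are uncertain because their mature strands are alike. Mir199a-1 had 1310, 1286 and 1233 CPM in knockout hearts, against 698, 878 and 637 CPM in control hearts (log2 fold change 0.79, SE 0.17, edgeR adjusted p = 0.00183). Mir199b averaged 1025 ± 36.3 CPM in knockout and 612 ± 122 CPM in control hearts (SD, n = 3 each; log2 fold change 0.74, edgeR adjusted p = 0.00402). Every knockout heart lay above every control heart for both, as for Mir15b and Mir322, and both values turned negative (-0.049 and -0.094) with snoRNA-based scaling. The endothelial Mir126a was not called (17620 to 20972 CPM in knockout and 19531 to 23763 CPM in control), and Mir126b was listed at 0. Of 7 cardiomyocyte miRNAs 1 was called higher, Mir208b (log2 fold change 0.79, edgeR adjusted p = 0.0399). Called lower were 2, Mir1a-1 (-0.57) and Mir1a-2 (-0.61). Neither Mir1a gene was called without any 1 of the knockout libraries. Mir208b was not called without control replicate 2 (edgeR adjusted p = 0.0669) or control replicate 3 (edgeR adjusted p = 0.165). With snRNA-based and rRNA-based scaling Mir1a-1 was at 0.0011 and Mir1a-2 at -0.038, and with snoRNA-based scaling Mir208b was at -0.048. Over all features tested 23.2% were called higher and 27.0% lower. The part of any of these cell types in the values of Mir15b and Mir322 was not tested.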

How the data were processed

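Small RNA was measured in hearts of 3 knockout and 3 control mice, grouped by their sample titles, with 1 library per mouse in the files. The design text names 4 technical replicates for each mouse; no source used here says how they were combined. The authors deposited raw counts per feature. They also deposited normalized counts (a signal: raw count over 1 size factor per library, as found from the values) and, per the file headers, their own comparison with log2 fold changes, a Wald score, p-values and adjusted p-values. The submitters' processing notes name build mm10 and the tools DESeq2 1.16.1, featureCounts 1.5.1, Bowtie2 2.2.9 and cutadapt 1.14. The annotation, strandedness and treatment of multiply aligned reads: not given in the sources used here. The members' mean normalized counts lay within 0.609% of those in the authors' deposited comparison. There were 0 columns of other samples.

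A filter on low counts (filterByExpr in edgeR, with 10 as minimum count and 15 as minimum total) left 1144 features with at least 99.89% of each library's counts. TMM factors scaled the library sizes (0.949, 0.828 and 0.889 in knockout and 1.14, 1.09 and 1.15 in control replicates 1 to 3). Knockout was tested against control on the raw counts with edgeR 4.0.16 (glmQLFit, glmQLFTest; R 4.3.3), without covariates, with Benjamini-Hochberg adjustment over all features tested. The fit's biological coefficient of variation was 0.217. Each adjusted p is from this fit unless DESeq2 (1.42.0) or a permutation test is named, a standard error is the log2 fold change over the square root of F, and 95% intervals use the fit's degrees of freedom. Shares and ratios were compared by exact permutation tests in SciPy 1.17.1. Libraries were distinct, with a lowest chi-square per degree of freedom of 98.2 between any pair.

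The members and lists were chosen with earlier results of these data known. The text names all 7 members, the listed linked or same-seed genes that reached 10 CPM in either group or were called, the 3 miRNA genes closest to the most abundant member, and cell type markers beside them. Other listed genes are named with their counts only. Listed names were matched to the names in the table (Mir497, Mir450-1 and Mir450-2) through RefSeq synonyms. Sequences are from RefSeq (GRCm38.p6), where all 7 members matched, and positions from GENCODE M21 (GRCm38). Alternatives covered the filter, the scaling, DESeq2, a replicate block, summed miR-16 genes and each library left out.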

Additional observations from a re-analysis of the deposited data

How the results depend on the processing

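Counts per library of Mir15a (43 to 118) limit that gene's precision, and 3 hearts a group keep every exact permutation p at 0.1 or above. Of the 7 members, 2 were called higher and 0 lower with all-feature scaling, and the counts were the same without a filter on low counts, with DESeq2 size factors, with the DESeq2 test and with the miR-16 genes summed. Of all features, 23.2% were called higher and 27.0% lower in the main fit. These shares were 4.68% and 7.65% without the filter, and 22.4% and 29.0% with DESeq2 size factors. Although the counts were the same, all 7 members had higher log2 fold changes without the filter, with Mir322 at 0.88, Mir15b at 1.22 and Mir195a at 0.063. The count of higher calls was 0 with total counts alone, 0 with miRNA-based, 0 with snoRNA-based and 4 with snRNA-based and rRNA-based factors. In these settings 14.9%, 16.6%, 8.83% and 35.8% of all features were called higher. The count of lower calls was 1 with total counts alone (37.8% of all features), and it was 4 where snoRNA-based factors were used (57.6% of all features). With the replicate block 1 was called higher, Mir15b, and Mir322 was not (log2 fold change 0.54, adjusted p = 0.104). Of all features 21.2% were called higher with the block. Same-numbered hearts did not deviate together (Pearson r across features of -0.134, -0.0163 and -0.192 for replicates 1 to 3). No heart pair was linked by its number in the labels, and no heart correlated best with its own number. With 1 library left out, 1 to 3 members were called higher and 0 lower. In these fits 19.3% to 24.8% of all features were called higher and 22.3% to 39.6% lower. Each was filtered and scaled anew. Without any 1 of the knockout libraries 1389 to 1405 features were tested, against 1144 in the main fit. All 7 members then had higher log2 fold changes than in the main fit (Mir322 0.68 to 0.82, against 0.52). The loss of a library and the change in filter and scaling cannot be told apart there.

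Several log2 fold changes changed sign, and the cause was not tested beyond the shift of all features that each scaling gives. With total counts alone these were Mir15a -0.044, Mir16-1 -0.12, Mir16-2 -0.11, Mir503 -0.19, Mir497 -0.033, Mir351 -0.041, Mir450-1 -0.16, Mir450-2 -0.10 and Mir450b -0.14. With miRNA-based factors Mir503 was at -0.021. With snoRNA-based factors they were Mir15a -0.54, Mir16-1 -0.62, Mir16-2 -0.62, Mir15b -0.019, Mir322 -0.32, Mir503 -0.70, Mir497 -0.53, Mir351 -0.56, Mir542 -0.16, Mir450-1 -0.67, Mir450-2 -0.61, Mir450b -0.65, Mir342 -0.35 and Mir339 -0.42. Mir195a was at 0.063 without a filter and at 0.25 with snRNA-based and rRNA-based factors. Without control replicate 3 Mir503 was at -0.017 (range over libraries left out -0.017 to 0.43). Of the remaining single-gene values, 9 lost and 19 gained a call.

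Differences in share, in percentage points of the family's counts, kept their sign for Mir15b (1.44 to 2.84), Mir322 (5.66 to 8.77) and Mir195a (-11.0 to -4.94) with any 1 library left out. They changed sign for Mir15a (-0.11 to 0.255, and -0.0537 with Mir195a left out of the sum, where Mir15b was at 2.30, Mir322 at 3.98, Mir16-1 at -2.62, Mir16-2 at -2.12 and Mir503 at -1.49), Mir16-1 (-1.37 to 0.349), Mir16-2 (-0.993 to 0.204) and Mir503 (-1.06 to 0.134). The log2 ratios were planned, but leaving 1 library out of them was an alternative chosen after seeing the data. With 1 library left out, their differences were 0.01 to 0.44 for Mir15a over Mir16-1, 0.43 to 0.79 for Mir15b over Mir16-2 and 0.22 to 0.52 for Mir322 over Mir503.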
